A study of Mus musculus with 22 samples.

Results

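The insulin-like growth factor genes described here were 10 genes listed by symbol: the ligand Igf1, the receptors Igf1r and Insr, the receptor adaptor Irs1, and the binding protein genes Igfbp2, Igfbp3, Igfbp4, Igfbp5, Igfbp6 and Igfbp7. A gene was measured by a probe set that carried its symbol and no other, and 9 of the 10 genes had 1 such probe set each. Insr was not analysed here. On 22 of 22 arrays all 9 exceeded the array's median over transcript clusters, and they were read among 19050 genes tested. The arrays profiled RNA of the urogenital sinus epithelium, the fetal tissue from which the prostate buds in males, at embryonic stage E16.75 in C57BL/6J mice. The 22 samples comprised 6 controls and 6 knockouts from males and 5 controls and 5 knockouts from females. Knockout fetuses carried ShhCre/+ and Sox9fl/fl, so that Cre came from 1 Shh allele, and littermate controls carried Shh+/+ and Sox9+/fl. Every group therefore held at least 1 floxed Sox9 allele, controls had no Cre, and loss of Sox9 cannot be told apart from the Shh allele that carries Cre. The labels call the replicates biological and do not say whether RNA of 1 fetus or of several was pooled for an array. They give no litter, batch or date, so arrays that share a litter are not known. The samples were fitted as independent, and the p-values set a difference between group means against the spread within groups.

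Insulin-like growth factors are secreted peptides that bind a receptor tyrosine kinase, which signals through insulin receptor substrates to phosphoinositide 3-kinase, AKT and mTOR. The binding proteins hold the peptides outside the cell and can limit or prolong their access to the receptor, and secreted proteases release the peptides again. In the developing prostate and other glands these growth factors are known chiefly as products of the mesenchyme that act on the epithelium.

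Sox9 and Shh followed the genotypes. Mean Sox9 was 9.33 in male controls and 8.26 in male knockouts, and 8.89 and 7.89 in the females, all as log2 values. Shh lay 0.45 lower in male and 0.56 lower in female knockouts on the log2 scale. Genes of the sex chromosomes matched the labelled sex on 22 of 22 arrays, and the correlation across genes between arrays of a group lay between 0.985 and 0.995. Of 11 markers of the sinus epithelium 11 were tested, with list means from 11.39 to 11.51 over the arrays. The mesenchyme had been dissected away. Of 14 mesenchyme markers 12 were tested. Pdgfra had no probe set of that single symbol, and Postn did not pass the filter on dim probe sets. This filter kept 19050 of 30102 genes with a probe set. The mean of these 12 markers was 6.84 to 7.77 in male controls, where male control 6 was the highest and the next array was at 7.09. It was 6.87 to 7.23 in male knockouts, 7.11 to 7.34 in female controls and 7.08 to 7.25 in female knockouts. Male control 6 was also highest for 11 smooth muscle genes, at 7.33 against a median of 6.33 in its group. For the 9 genes, sex differences in controls that were called or near the threshold are given with and without this array. So is the male knockout difference of Igfbp4. For other genes of the pathway, only the count of calls in controls is given both ways. In tissue RNA, fewer cells of a type and less RNA per cell cannot be told apart.

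Of the 9 genes, Igfbp4 was lower in male knockouts than in male controls, 1.42-fold, and none passed the test in females. Differences between the sexes were more frequent: Irs1 and Igfbp7 were higher in males and Igfbp2 was lower in males in both genotypes. The test was limma's moderated test over all arrays, with p-values adjusted over all genes by the Benjamini-Hochberg method and 0.05 as the threshold for a call. In males 1 of 9 genes was called, with 0.199% of all genes called and 0.178% called lower. In females 0 of 9 were called, and 0.0315% of all genes were called. At an unadjusted p under 0.05 were 0 of 9 genes in females and 1041 of all 19050. Averaged over the sexes 1 of 9 was called, again Igfbp4, against 0.247% of all genes. Between the sexes in controls 4 of 9 were called against 6.94% of all genes, 3 of them higher in males (all genes 3.27%) and 1 lower (3.67%). In knockouts 5 of 9 differed between the sexes against 7.19% of all genes, 2 higher in males (3.66%) and 3 lower (3.52%). The median size of the sex difference over the 9 genes was 0.33 on the log2 scale in controls, where that of all genes was 0.07, and 0.25 in knockouts, where that of all genes was 0.06. For the knockout in males the median size was 0.02 over the 9 genes and 0.05 over all genes. The knockout's effect differed between the sexes for 0 of 9 genes and for 0.00525% of all genes. At an unadjusted p under 0.05 were 1 of 9, Igfbp4, and 769 of all 19050 genes.

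**Figure D1:**
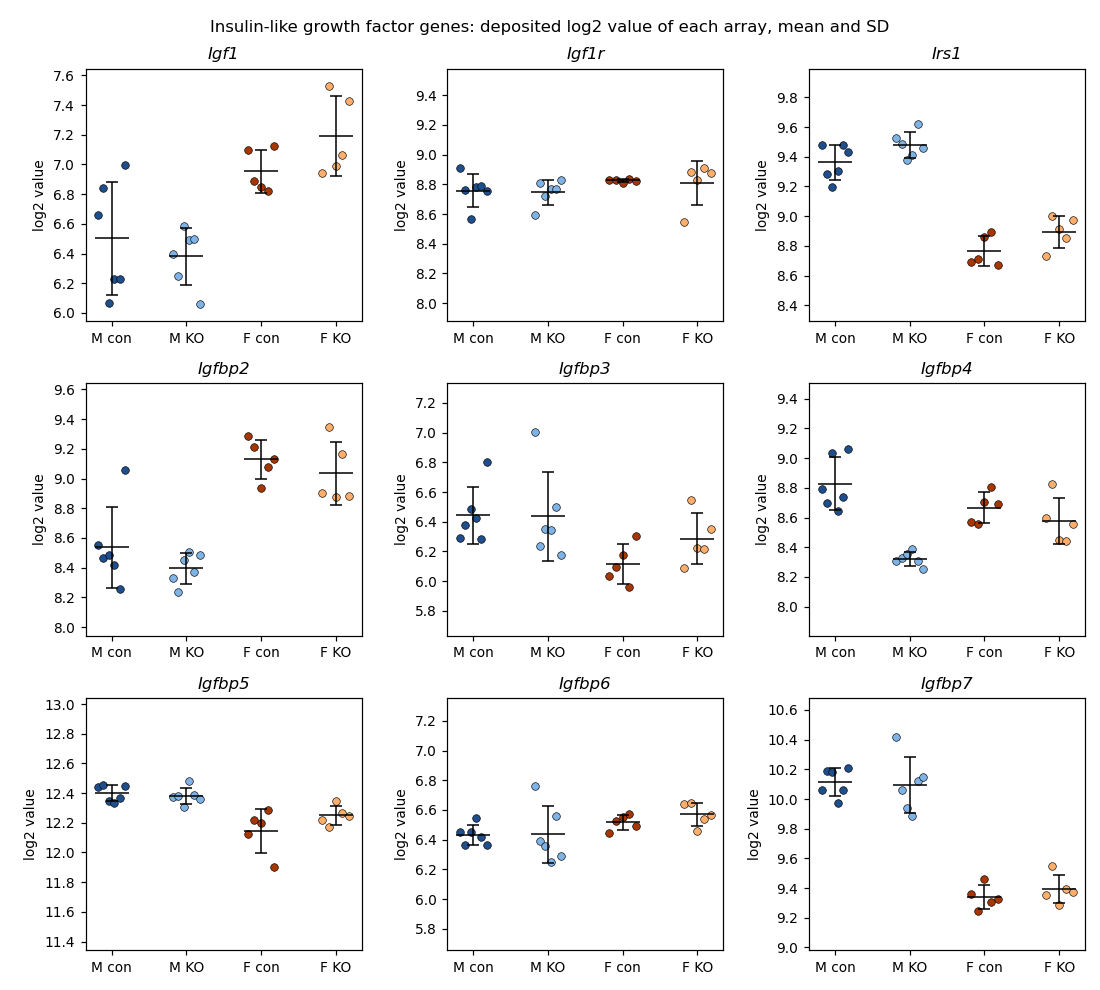
Each panel plots 1 gene: deposited log2 values (vertical axis, each panel spanning the same height) of 6 male control and 6 male knockout and of 5 female control and 5 female knockout arrays (M con, M KO, F con, F KO), with points for arrays, a bar for the mean and whiskers for the SD. The 6 male knockouts sit below the other arrays for Igfbp4, from 8.25 to 8.39, while Igfbp7 and Irs1 separate males from females in both genotypes.

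Igf1 encodes the secreted ligand, and it was the gene of the set with the widest spread in male controls. Its log2 value ran from 6.07 over a median of 6.44 to 6.99 in the male controls and from 6.06 over 6.45 to 6.58 in the male knockouts. The female controls were at 7.10, 6.89, 6.85, 6.82 and 7.12, and the female knockouts at 6.94, 7.53, 6.99, 7.06 and 7.43. Every female knockout lay above every male knockout, whereas 2 male controls, at 6.84 and 6.99, lay among the female controls. In knockouts Igf1 was 0.81 lower in males (SE 0.15, 1.75-fold, adjusted p = 0.000737). In controls the difference was -0.45 (95% confidence interval -0.76 to -0.15) and missed the threshold, with an adjusted p of 0.0694. Without male control 6 it was -0.55 with an adjusted p of 0.017, and without male control 2 it also passed, with an adjusted p of 0.0419. These were the 2 male controls with the highest Igf1. In 30 of 32 alternatives the difference in controls was not called. Without male control 3 it was -0.36 (adjusted p = 0.17). That the sex difference itself differed between the genotypes was not shown: the interaction was -0.36 (SE 0.21, adjusted p = 0.997). Knockout minus control was -0.12 in males (interval -0.41 to 0.17) and 0.24 in females (interval -0.08 to 0.56), and neither was called.

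Mesenchyme markers are given beside Igf1 because the ligand is known as a mesenchymal product. Apart from male control 6, their mean was lower in every male control than in any female control. Of the 12 genes, Dcn, Fn1 and Dpt were called lower in control males, where 3.67% of all genes were called lower. Yet the median difference over the 12 genes was 0.05 in the other direction. In knockouts the ranges of the sexes overlapped, with Dpt called lower (all genes 3.52%) and Lum called higher (all genes 3.66%) in males. With the mean of the mesenchyme list as a covariate Igf1 was still 0.72 lower in male than in female knockouts (adjusted p = 0.00121), and 0.37 lower in male than in female controls (adjusted p = 0.117). Over the 22 arrays the deviations of Igf1 from its group means had a correlation of 0.50 with those of the mesenchyme list, and of 0.19 without male control 6. Igf1 was one of the dimmer genes of the set, 2.86 above the median of the background probe sets on its lowest array.

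Igf1r, the receptor tyrosine kinase for the ligand, gave no call in any comparison. Its group means were 8.76 ± 0.11 in male controls and 8.75 ± 0.08 in male knockouts (SD, n = 6 each), and 8.83 ± 0.01 and 8.81 ± 0.15 in female controls and knockouts (SD, n = 5 each). The 95% intervals of the knockout effect were -0.13 to 0.11 in males and -0.15 to 0.12 in females. The sex difference was -0.07 in controls (interval -0.20 to 0.06) and -0.06 in knockouts (interval -0.19 to 0.07). Differences of more than 0.20 on the log2 scale were thus outside all 4 intervals.

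Irs1 encodes insulin receptor substrate 1, the docking protein that passes the signal of the activated receptor to phosphoinositide 3-kinase. It was higher in males in both genotypes. The male controls ran from 9.20 over a median of 9.37 to 9.48 and the male knockouts from 9.38 over 9.47 to 9.62. Female controls were at 8.69, 8.71, 8.86, 8.89 and 8.67, and female knockouts at 8.73, 9.002, 8.92, 8.85 and 8.97. The lowest male array, at 9.20, stood above the highest female array, at 9.002. The difference was 0.60 in controls (SE 0.06, 1.51-fold, adjusted p = 9.45e-07) and 0.58 in knockouts (SE 0.06, 1.499-fold, adjusted p = 1.14e-06). Without male control 6 the difference in controls was 0.59 and still called. The interaction was -0.02 (interval -0.20 to 0.17, adjusted p = 0.998). Knockout minus control was 0.12 in males and 0.13 in females, and the average of 0.12 (SE 0.04) was not called (adjusted p = 0.46).

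Igfbp4 encodes a binding protein that mostly holds the ligands away from the receptor and is cut by the secreted protease encoded by Pappa. It was the one gene of the set with a called difference between knockout and control. The male controls were at 8.79, 8.70, 9.04, 8.64, 8.74 and 9.06, and the male knockouts at 8.31, 8.33, 8.35, 8.39, 8.31 and 8.25. All 6 male knockouts lay below all 6 male controls, and the knockouts spread less (SD 0.05 against 0.18). Igfbp4 was 0.51 lower in the male knockouts (SE 0.07, interval -0.66 to -0.35, 1.42-fold, adjusted p = 0.00127). In this comparison 1 of the 9 genes had groups that did not overlap, with 0.420% of all genes doing so.

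In females the knockout arrays lay within the range of the controls and beyond it on both sides. The female controls were at 8.57, 8.56, 8.70, 8.81 and 8.69, and the female knockouts at 8.60, 8.83, 8.45, 8.44 and 8.56. The difference was -0.09 (SE 0.08, interval -0.26 to 0.08, adjusted p = 1), and 0 of the 9 genes had groups that did not overlap in females, where 1.39% of all genes did. The male effect minus the female effect was -0.42 (SE 0.11, interval -0.64 to -0.19), with an unadjusted p of 0.000893 in the moderated test. It did not pass the threshold over all genes (adjusted p = 0.997, from 0.571 to 1 over the alternatives). A difference between the sexes in this effect was thus not shown. Averaged over the sexes Igfbp4 was 0.30 lower in knockouts (SE 0.05, adjusted p = 0.00968). All 6 male knockouts also lay below all 5 female knockouts, a difference of -0.25 with an adjusted p of 0.0462. That call was lost in 18 of 32 alternatives, and over all 32 the adjusted p lay between 0.0299 and 0.173. Without female knockout 2 the difference was -0.19. Control males and females overlapped, with a difference of 0.16 and an adjusted p of 0.249.

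The lower Igfbp4 of male knockouts was called in 32 of 32 alternatives, with differences between -0.54 and -0.46. The smallest of them came without male control 6, the array with the highest mesenchyme and smooth muscle markers (adjusted p = 0.00368). With the mesenchyme mean as a covariate the difference was -0.49 (adjusted p = 0.000818). None of 12 mesenchyme and none of 11 smooth muscle genes was called between knockout and control males, where 0.199% of all genes were called. The median difference was -0.01 over the mesenchyme genes, -0.15 over the smooth muscle genes and 0.01 over all genes. Array means of 6 urothelium genes had a median of 9.93 in control and 10.01 in knockout males. In females the urothelium medians were 9.90 in controls and 10.44 in knockouts, with none of the 6 genes called (all genes 0.0315%). Their part in the female values was not tested. The deviations of Igfbp4 from its group means had a correlation of 0.45 with those of the mesenchyme list over 22 arrays, and of 0.12 without male control 6. With those of the smooth muscle list the correlation was 0.52, and 0.29 without this array. Smooth muscle genes were not used as a covariate, and their part in the difference was not tested.

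Because Igfbp4 was the gene called in the knockout and Sox9 is a transcription factor, the 250 bases before its start are shown, from RefSeq's table for GRCm38.p6. The window lies at chr11:99040994-99041243 on the plus strand, directly upstream of the gene's first exon, and capitals mark the letters TATAAA, the core of a TATA box.
Igfbp4: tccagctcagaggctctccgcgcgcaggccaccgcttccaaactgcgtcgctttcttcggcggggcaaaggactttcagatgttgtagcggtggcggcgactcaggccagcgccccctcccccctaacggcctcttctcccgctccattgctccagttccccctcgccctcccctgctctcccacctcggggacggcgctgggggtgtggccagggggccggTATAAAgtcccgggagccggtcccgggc
These letters began 28 bases before the start, and 12.4% of 32851 RefSeq windows of the same length held TATAAA on either strand. The letters ACAAT, a core that SOX factors recognise, were searched on both strands and occurred in 27.7% of all windows but in none of the 10 windows of these genes. The window had 69.2% G and C, and the median of all windows was 52.4%. A match or its absence describes these letters in this window and nothing of the factor.

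**Figure D2:**
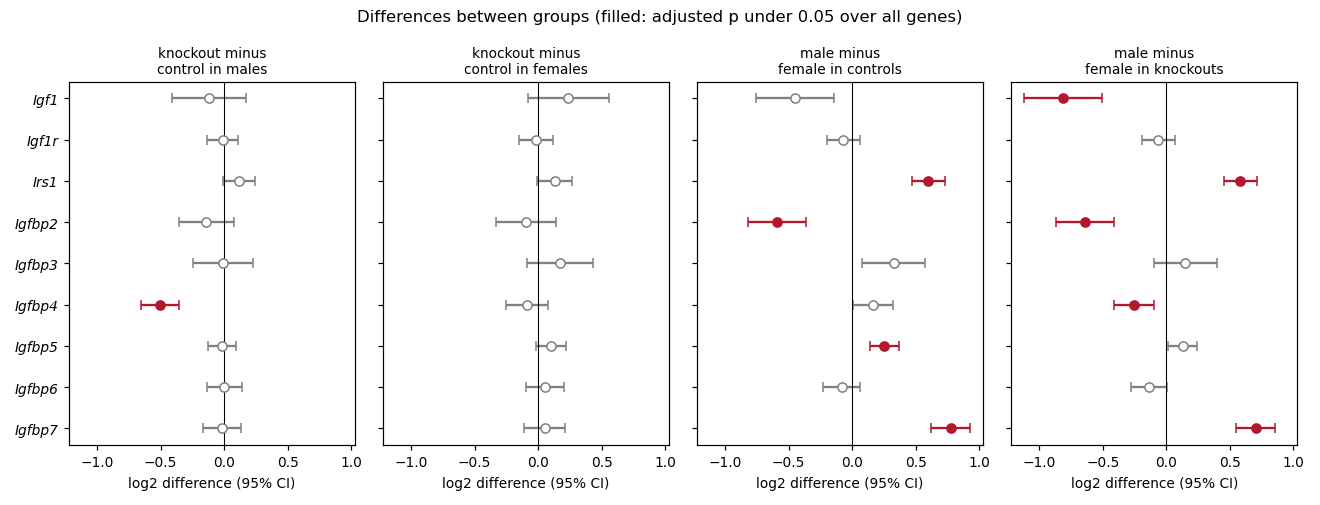
Log2 differences of the 9 genes (horizontal axis, log2) with 95% confidence intervals in 4 comparisons, 1 panel each, with filled red points where the adjusted p over all genes was under 0.05. Igfbp4 at -0.51 is the one filled point in the male knockout panel, the female knockout panel has none, and the panels for sex hold 4 and 5.

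Igfbp2 and Igfbp5 are neighbouring genes on chromosome 1 that encode secreted binding proteins, and they differed between the sexes in opposite directions. Igfbp2 was higher in females. It ran from 8.26 over a median of 8.47 to 9.06 in male controls and from 8.23 over 8.41 to 8.51 in male knockouts. The female controls were at 9.29, 9.21, 8.94, 9.08 and 9.13, and the female knockouts at 8.90, 9.35, 8.88, 9.16 and 8.88. Male control 6, at 9.06, was the one male array among the females, and the next male control was at 8.55. The male minus female difference was -0.59 in controls (SE 0.11, 1.51-fold, adjusted p = 0.000915) and -0.64 in knockouts (SE 0.11, 1.56-fold, adjusted p = 0.000363). Without male control 6 the difference in controls was -0.70 (adjusted p = 1.5e-05). With the mesenchyme mean as a covariate it was -0.52 in controls and -0.56 in knockouts, and both were called. Deviations of Igfbp2 from its group means had a correlation of 0.58 with those of the mesenchyme list over 22 arrays and of -0.05 without male control 6. Knockout minus control was -0.14 in males (interval -0.36 to 0.07) and -0.09 in females (interval -0.33 to 0.14).

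Igfbp5 was higher in males in controls. The male controls ran from 12.34 over a median of 12.40 to 12.45, and the female controls were at 12.13, 12.22, 12.20, 12.29 and 11.91, without overlap. The difference was 0.25 (SE 0.05, 1.19-fold, adjusted p = 0.00443), and it was 0.19 without female control 5 and 0.24 without male control 6, still called (adjusted p = 0.0126 and 0.011). In knockouts the male range of 12.31 to 12.48 overlapped the female range of 12.17 to 12.35, and the difference of 0.13 (SE 0.05) was not called (adjusted p = 0.194). The interaction of -0.12 was not called (adjusted p = 0.997), so that the sex difference was not shown to depend on the genotype. Over all 22 arrays Igfbp2 and Igfbp5 had a correlation of -0.66, and of -0.01 between deviations from the group means.

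The windows of 250 bases before the starts of this pair are shown because the genes adjoin and moved in opposite directions. That of Igfbp2 lies at chr1:72824230-72824479 on the plus strand and has 67.2% G and C; the table also holds a later start of this gene. That of Igfbp5 lies at chr1:72874866-72875115 on the minus strand and has 58.8%. Both are in GRCm38.p6, 5′ to 3′ on the gene's own strand, and capitals mark AGAACA, an androgen receptor half-site, searched with its other strand TGTTCT.
Igfbp2: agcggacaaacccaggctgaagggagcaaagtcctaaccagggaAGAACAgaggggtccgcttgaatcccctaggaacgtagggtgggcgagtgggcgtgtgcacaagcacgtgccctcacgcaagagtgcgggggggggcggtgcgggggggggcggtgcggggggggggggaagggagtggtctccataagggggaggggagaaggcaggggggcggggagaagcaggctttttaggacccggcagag
Igfbp5: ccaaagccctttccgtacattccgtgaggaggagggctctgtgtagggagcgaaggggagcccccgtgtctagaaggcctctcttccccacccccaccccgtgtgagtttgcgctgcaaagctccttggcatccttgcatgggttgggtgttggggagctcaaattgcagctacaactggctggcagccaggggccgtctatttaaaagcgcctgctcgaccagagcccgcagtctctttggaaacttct
The match began 206 bases before the start of Igfbp2, and no other window of these genes held either form, which 16.1% of all windows hold. The window of Igfbp5 held none of the 3 motifs searched.

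**Figure D3:**
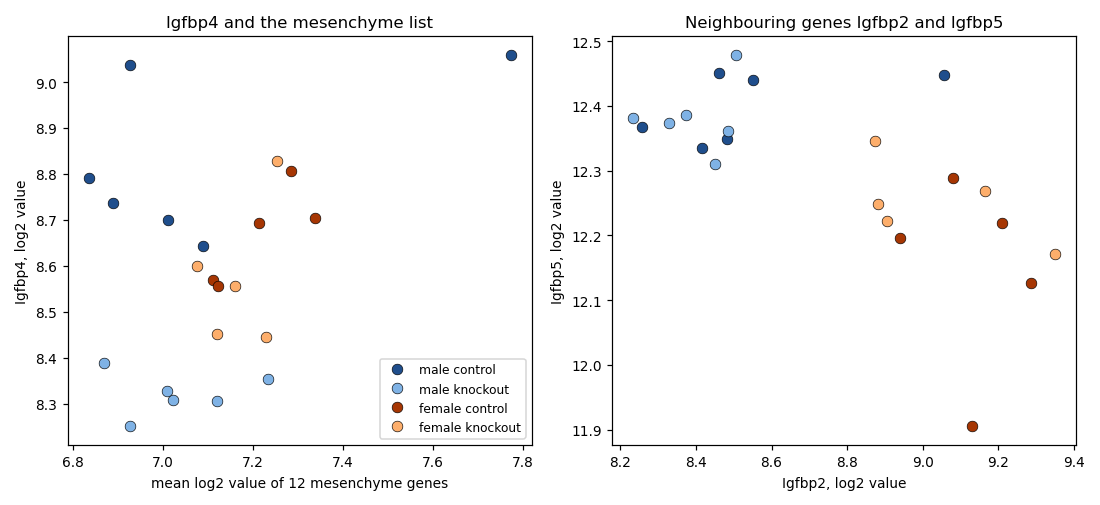
Left, Igfbp4 against the mean of 12 mesenchyme genes, and right, Igfbp5 against its neighbour Igfbp2, 1 point for each of 22 arrays, all axes in log2 values and colours for the 4 groups. Male knockouts lie between 8.25 and 8.39 for Igfbp4 at mesenchyme means from 6.87 to 7.23, and male control 6 stands apart at a mesenchyme mean of 7.77 and an Igfbp2 value of 9.06.

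Igfbp7 encodes a related secreted protein of the extracellular matrix that binds these peptides weakly. It had the largest sex difference of the 9 genes in controls. The male controls ran from 9.97 over a median of 10.12 to 10.21 and the male knockouts from 9.89 over 10.09 to 10.42. Female controls were at 9.36, 9.24, 9.46, 9.31 and 9.33, and female knockouts at 9.36, 9.55, 9.29, 9.39 and 9.38. All 12 male arrays lay above all 10 female arrays. The difference was 0.77 in controls (SE 0.07, 1.71-fold, adjusted p = 2.45e-07) and 0.70 in knockouts (SE 0.07, 1.63-fold, adjusted p = 8.22e-07). Without male control 6 the difference in controls was 0.75, still called. Knockout minus control was -0.02 in males (interval -0.16 to 0.13) and 0.05 in females (interval -0.11 to 0.21). In all, 3 of the 9 genes had no overlap between the sexes in controls (Irs1, Igfbp5 and Igfbp7; all genes 5.64%), and 5 of 9 in knockouts (Igf1, Irs1, Igfbp2, Igfbp4 and Igfbp7; all genes 5.82%).

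Igfbp3 and Igfbp6, 2 further secreted binding proteins, gave no call in the fit over all arrays. Igfbp3 means were 6.44 ± 0.19 and 6.44 ± 0.30 in male controls and knockouts (SD, n = 6 each) and 6.12 ± 0.13 and 6.29 ± 0.17 in female controls and knockouts (SD, n = 5 each). In controls it was 0.33 above the female mean in males (interval 0.08 to 0.58, adjusted p = 0.111). Over 31 alternatives the difference lay between 0.26 and 0.39 and the adjusted p between 0.0284 and 0.238. The lowest value came without male control 6, which had the highest Igfbp3 of the male controls at 6.80 (adjusted p = 0.238). The threshold was passed without male knockout 1, whose Igfbp3 value of 7.00 was the highest of any array (adjusted p = 0.0284), with the mesenchyme mean as a covariate (0.39, adjusted p = 0.0305) and with array weights (adjusted p = 0.0475). Igfbp6 means lay between 6.43 and 6.57, and the intervals of its 4 differences ran from -0.28 to 0.20. Without male knockout 1, its highest array at 6.76, Igfbp6 was 0.20 lower in male than in female knockouts and was called (adjusted p = 0.0285), whereas with all arrays the difference was -0.13 (adjusted p = 0.337). The lowest arrays of Igfbp3 and Igfbp6 were 2.67 and 3.06 above the background probe sets.

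Of 46 other genes of the pathway 38 were tested. None of the 38 was called between knockout and control in males, in females or over both (all genes 0.199%, 0.0315% and 0.247%). An unadjusted p under 0.05 was found for 3, 1 and 2 of the 38, and for 1195, 1041 and 1369 of all 19050 genes. In males the smallest p-values belonged to Stc1, which encodes a secreted inhibitor of the protease Pappa (0.27 higher in knockouts, adjusted p = 0.275), to Pappa itself (0.37, adjusted p = 0.667), to the signalling inhibitor Socs2 (0.14, adjusted p = 0.667) and to Eif4ebp1, a target of mTOR (0.11, adjusted p = 0.828). The female knockouts were above the female controls without overlap for the adaptor Irs4, 7.49 to 7.76 against 7.01 to 7.43. The difference of 0.33 was not called (adjusted p = 0.595). Irs4 was the 1 gene of the 38 without overlap in females, where 1.39% of all genes had none. Igf2, the second ligand, differed by 0.01 in males and 0.08 in females and was not called in any comparison.

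Between the sexes 5 of the 38 genes were called in controls, 2 higher and 3 lower in males, and 8 of 38 in knockouts, 5 higher and 3 lower. Of all genes 6.94% were called in controls and 7.19% in knockouts. The median size over the 38 was 0.07 in both genotypes, and that of all genes was 0.07 in controls and 0.06 in knockouts. Irs4, an X-linked relative of Irs1, had the largest difference, 1.32 higher in control males (SE 0.09, 2.50-fold, adjusted p = 1.89e-09) and 1.01 higher in knockout males (SE 0.09, 2.02-fold, adjusted p = 1.29e-07). It ran from 8.46 to 8.75 in male controls and from 7.01 to 7.43 in female controls. Pik3r1, a regulatory subunit of phosphoinositide 3-kinase, was 0.25 and 0.34 higher in males, and Pik3r2, the other regulatory subunit measured, was 0.18 and 0.23 lower. The receptor-binding inhibitor Grb10 was 0.25 and 0.24 lower in males, and Stc2, a secreted Pappa inhibitor, was 0.30 and 0.24 lower, in controls and knockouts respectively. Called in knockouts alone were Stc1 (0.38 higher in males, adjusted p = 0.00179), Socs2 (0.22, adjusted p = 0.0153) and Grb14, a relative of Grb10 (0.20, adjusted p = 0.037). The interaction was called for 0 of 38 genes and for 0.00525% of all genes. An unadjusted p under 0.05 was found for 1 of the 38 and for 769 of all 19050 genes. With each array centred on its median, 2 of the 38 were called in controls and 5 in knockouts. Without female control 1 the count in controls was 3, and without male control 6 it was 4.

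**Figure D4:**
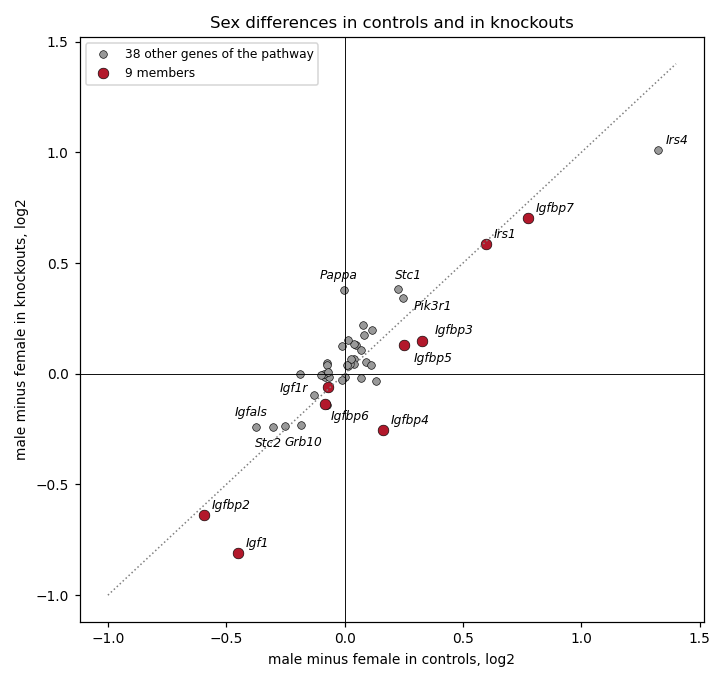
Male minus female log2 difference in controls (horizontal axis) and in knockouts (vertical axis) for the 9 insulin-like growth factor genes (large red points) and 38 other genes of the pathway (small grey points), with a dotted line where both are equal. Irs4, Igfbp7 and Irs1 lie at the upper right, Igfbp2 and Igf1 at the lower left, and Igfbp4 at 0.16 and -0.25.

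The tested genes whose values followed a called gene most closely over the 22 arrays are a description, since the arrays share sex, genotype and tissue composition. Igfbp7 had its highest Pearson correlations with Lypd2 (0.98), Gas6 (0.97) and Tgfbr3 (0.96). Irs1 had them with Osbpl6 (0.96), Lamc1 (0.95) and Irs4 (0.95), the other adaptor with a called sex difference. For Igfbp2 they were with Palld (0.95), Dcc (0.91) and Robo2 (0.90), and for Igf1 with Col8a1 (0.90), Mllt3 (0.88) and Gna14 (0.88). Igfbp5 was followed by Smc4 (0.89), Emb (0.88) and Copb2 (0.87). The values for Igfbp4 were lower, with Cdkn1c (0.82), Noxo1 (0.82) and Sgce (0.80). Between deviations from the group means all these correlations were lower. They were 0.76, 0.72 and 0.72 for the genes given with Igfbp7, 0.41, 0.70 and 0.41 for those with Irs1, and 0.77, 0.55 and 0.50 for those with Igfbp2, in the order named. They were 0.74, 0.69 and 0.73 for Igf1, 0.76, 0.75 and 0.66 for Igfbp5, and 0.56, 0.44 and 0.57 for Igfbp4.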

How the data were processed

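Biotin-labelled RNA was hybridised to Affymetrix whole-transcript arrays, per the labels' protocols. The authors deposited log2 values of 72688 probe sets on 22 arrays; the scale was read from the values, and the sources used here do not give the normalization. The medians of the arrays lay between 5.10 and 5.27. Probe sets with 1 symbol in the platform table, above the array median on at least 5 arrays, were kept, and the one of highest mean stood for its gene. limma 3.58.1 (R 4.3.3) fitted 4 group means over 22 arrays with default eBayes, with two-sided tests and Benjamini-Hochberg adjustment over 19050 genes. Probe sets differ in brightness, so levels are compared within a gene. Promoter windows came from RefSeq's GRCm38.p6 table, which held 9 of the 10 genes. The genes and lists were chosen with earlier results of these data known. Named were the 10 genes, pathway genes called in any comparison or among the 4 smallest p of a comparison described, and the 3 genes most correlated with each called gene. The fit was tested on simulated data. Alternatives changed normalization, filter, probe sets, variance model, samples fitted, weights, covariate, replicate block and each array left out. The number of arrays limits the precision.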

Additional observations from a re-analysis of the deposited data

Results flagged for a closer look

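In 2 of 36 groups of a gene, 1 array stood apart from the rest by Dixon's criterion, which chance meets in about 1 in 20 groups. Igf1r was at 8.55 in female knockout 1, and the nearest of the other female knockouts was at 8.83. That array had the highest means of all 22 for the immune markers (6.70) and the urothelium markers (10.55). Deviations of Igf1r from its group means had correlations of -0.63 and -0.49 with those of these lists over the 22 arrays. The correlations include female knockout 1 and were not computed without it, so they cannot tell this array from a relation over the others. The part of these markers in the value was not tested. Igfbp2 was at 9.06 in male control 6, and the nearest male control was at 8.55; this is the array with the highest mesenchyme and smooth muscle markers.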

How the results depend on the processing

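Over up to 32 alternatives the counts of called genes stayed within 1.5 times their values (4 to 5 of 9 between the sexes in controls and in knockouts, 1 of 9 between knockout and control males), and the 18 of 54 single-gene differences with an unadjusted p under 0.05, or called under any alternative, kept their sign. Of the other 36, none ever called, 11 turned sign under at least 1 alternative. There were 18 cases of a lost call, all of them Igfbp4 between male and female knockouts, and 6 of a gained one: Igf1 with 2 and Igfbp3 with 3 alternatives between the sexes in controls, and Igfbp6 between the sexes in knockouts without male knockout 1. Igfbp3 and Igfbp6 did not pass the stricter filter. Same-numbered arrays did not deviate together: 4 of 31 pairs had a correlation above 0.1, and the range was -0.42 to 0.28. With a replicate block 1 gene was called between knockout and control males, 4 between the sexes in controls and 4 in knockouts, where Igfbp4 was at -0.27 (adjusted p = 0.081). With this block 3 of the 38 other pathway genes were called between the sexes in controls, and with array weights 10 of 38 in knockouts. Signal over background was lowest for Igfbp3, Igf1 and Igfbp6.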
